A study of Mus musculus with 8 samples.

Results

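The genes examined were Nanog, Gdf3, Dppa3, Dppa2, Dppa4 and Dppa5a, 6 of 21000 mouse protein-coding genes, together with the c-Jun peaks around them. A peak was counted when its centre lay within 100 kb of a transcription start site (TSS) of 1 of these genes on mm10, and each peak was counted once. The genes form 3 loci, since Gdf3, Dppa3 and Nanog share 1 stretch of chromosome 6, Dppa4 and Dppa2 lie side by side on chromosome 16, and Dppa5a lies on chromosome 9. Of the 16166 c-Jun peaks of EpiSCs, 16 fell within this distance, and of the 6032 peaks of kEpiSCs, 4 did.

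The peaks came from chromatin immunoprecipitation sequencing (ChIP-seq), which enriches the DNA bound by a protein, here c-Jun, in primed pluripotent cells. EpiSCs are the wild type epiblast stem cell line, whose labels give the strain as CBA/CaJ X C57BL/6J. By the study's methods EpiSCs came from females of a strain that this label does not name. These were crossed with male OG2 mice, which carry an Oct4-GFP reporter. kEpiSCs are an EpiSC line that carries an Oct4-GFP reporter and a Klf4 transgene driven by the CAG promoter, a broadly active promoter, and both are grown with Activin A and bFGF. There were 2 ChIP and 2 input libraries for each line, 8 in all, and 1 peak list per line was analysed. The fold enrichment of a peak is the authors' ratio of ChIP reads to local background at its highest point, the summit. The protocol text in the labels speaks of an H3K27ac antibody, but the antibody label, the titles and the study give c-Jun, which was taken here. Peak lists hold no expression values, so the labelled cell type was not checked against marker genes. How the replicates were combined in a list is not stated, so no value below has a spread between replicates and no difference was tested. A region outside a list has no value, and a low level there cannot be told apart from none.

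Nanog is a homeodomain transcription factor that holds cells in the naïve state, and Gdf3 is a secreted ligand of the TGF-beta family that signals through the receptors used by Nodal. Dppa3, also called Stella, limits DNA methylation in the oocyte and early embryo by keeping Uhrf1 from chromatin, while Dppa2 and Dppa4 are SAP-domain partners that sit at bivalent promoters. Dppa5a is a KH-domain RNA-binding protein abundant in naïve cells, and AP-1 dimers of Jun and Fos proteins bind the 7-base site TGAGTCA, which reads TGACTCA on the other strand.

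The sequences of the c-Jun peaks nearest to these genes are shown first. Other peaks, not all of them printed, hold most of the exact AP-1 sites counted later. They comprise the peaks whose centre lay within 10 kb of a TSS of the 6 genes and the regions found in both lists. All are from the RefSeq genome GRCm38.p6 (mm10), plus strand, and show the central 200 bp of the peak or the whole peak where it was narrower. At both EpiSC peaks of Dppa5a this window misses the summit, at chr9:78371601 in the nearer and chr9:78372569 in the other. The match marked in the nearer one lies 147 bp from its summit, and its unprinted part holds TGAGCCA, with 1 mismatch, 245 bp from it. The EpiSC and kEpiSC stretches printed for the nearer Dppa5a region do not overlap. In the region downstream of Nanog the marked matches of the lines are at different places, each outside the peak called in the other line. Capitals mark an exact AP-1 site at the Gdf3 peak, and elsewhere the closest match to it within the printed bases, with 1 mismatch in the region downstream of Nanog in both lines, upstream of Nanog and in the more distant Dppa5a peak, and 2 mismatches in the nearer Dppa5a region in both lines.
Gdf3, 8098 bp upstream, EpiSC peak, chr6:122618128-122618242: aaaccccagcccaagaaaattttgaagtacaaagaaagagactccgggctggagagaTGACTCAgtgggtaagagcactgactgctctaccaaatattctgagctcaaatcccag
Nanog, 4540 bp upstream, EpiSC peak, chr6:122702849-122703048: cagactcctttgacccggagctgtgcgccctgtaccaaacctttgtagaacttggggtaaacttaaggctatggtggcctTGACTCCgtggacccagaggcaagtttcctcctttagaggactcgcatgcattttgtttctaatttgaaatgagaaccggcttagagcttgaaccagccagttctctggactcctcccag
Dppa5a, 3265 bp upstream, EpiSC peak, chr9:78371365-78371564: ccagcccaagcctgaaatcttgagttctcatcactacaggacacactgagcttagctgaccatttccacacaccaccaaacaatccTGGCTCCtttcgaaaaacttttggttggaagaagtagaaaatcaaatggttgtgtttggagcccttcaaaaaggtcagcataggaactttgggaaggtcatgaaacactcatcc
Dppa5a, 3446 bp upstream, kEpiSC peak, chr9:78371586-78371704: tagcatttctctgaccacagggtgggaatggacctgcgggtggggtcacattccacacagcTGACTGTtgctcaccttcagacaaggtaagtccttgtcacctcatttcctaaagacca
Dppa5a, 4475 bp upstream, EpiSC peak, chr9:78372575-78372774: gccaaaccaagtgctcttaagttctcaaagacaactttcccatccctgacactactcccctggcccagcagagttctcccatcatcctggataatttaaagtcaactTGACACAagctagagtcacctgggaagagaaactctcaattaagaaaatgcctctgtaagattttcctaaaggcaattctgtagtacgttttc
Nanog, 65220 bp downstream, EpiSC peak, chr6:122772686-122772885: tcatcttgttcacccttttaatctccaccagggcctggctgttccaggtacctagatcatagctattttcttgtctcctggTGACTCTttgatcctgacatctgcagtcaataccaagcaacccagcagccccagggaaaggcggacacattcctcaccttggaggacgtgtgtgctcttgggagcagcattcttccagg
Nanog, 65343 bp downstream, kEpiSC peak, chr6:122772846-122772969: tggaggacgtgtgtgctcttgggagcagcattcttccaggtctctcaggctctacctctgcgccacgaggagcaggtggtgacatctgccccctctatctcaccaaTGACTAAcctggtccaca

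Another pair of sequences was chosen after their values were seen. The peak 17625 bp upstream of Nanog is shown because it holds 2 exact sites and shares a stretch with the Gdf3 peak. The peak 97222 bp downstream of Nanog is shown because it was the highest EpiSC peak of the chromosome 6 stretch.
Nanog, 17625 bp upstream, EpiSC peak, chr6:122689778-122689949: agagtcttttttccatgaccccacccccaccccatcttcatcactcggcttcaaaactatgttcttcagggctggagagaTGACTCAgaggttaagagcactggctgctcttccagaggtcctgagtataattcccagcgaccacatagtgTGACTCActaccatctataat
Nanog, 97222 bp downstream, EpiSC peak, chr6:122804687-122804886: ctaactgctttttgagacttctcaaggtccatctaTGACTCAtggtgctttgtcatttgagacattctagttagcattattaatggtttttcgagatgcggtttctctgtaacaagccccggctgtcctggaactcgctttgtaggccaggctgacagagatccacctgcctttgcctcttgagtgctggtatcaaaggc

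The chromosome 6 stretch held 13 of the 16 EpiSC peaks and 2 of the 4 kEpiSC peaks. It runs over 297.5 kb, so the EpiSC peaks came to 4.37 per 100 kb where the whole EpiSC list had 0.593 per 100 kb of genome. The kEpiSC peaks came to 0.672 per 100 kb where the whole list had 0.221. In both lists the stretch was denser in peaks than the genome, by 7.37 times in EpiSCs and 3.04 times in kEpiSCs, where this rests on 2 peaks. Around Dppa5a the density was 2.53 times that of the genome in EpiSCs and 4.52 times in kEpiSCs, where it rests on 2 peaks. The genome includes stretches far from genes, whereas these loci were chosen around TSSs. For scale, a protein-coding gene had on average 2.31 EpiSC and 0.836 kEpiSC peaks within 100 kb of a TSS. The 13 EpiSC peaks had no even spacing, with a gap of 71.5 kb between the Gdf3 peak and the first peak upstream of Nanog, and a run of 5 peaks beyond the Slc2a3 promoter with gaps of 1.68 to 4.59 kb. The map of the chromosome 6 stretch shows this order.

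**Figure D1:**
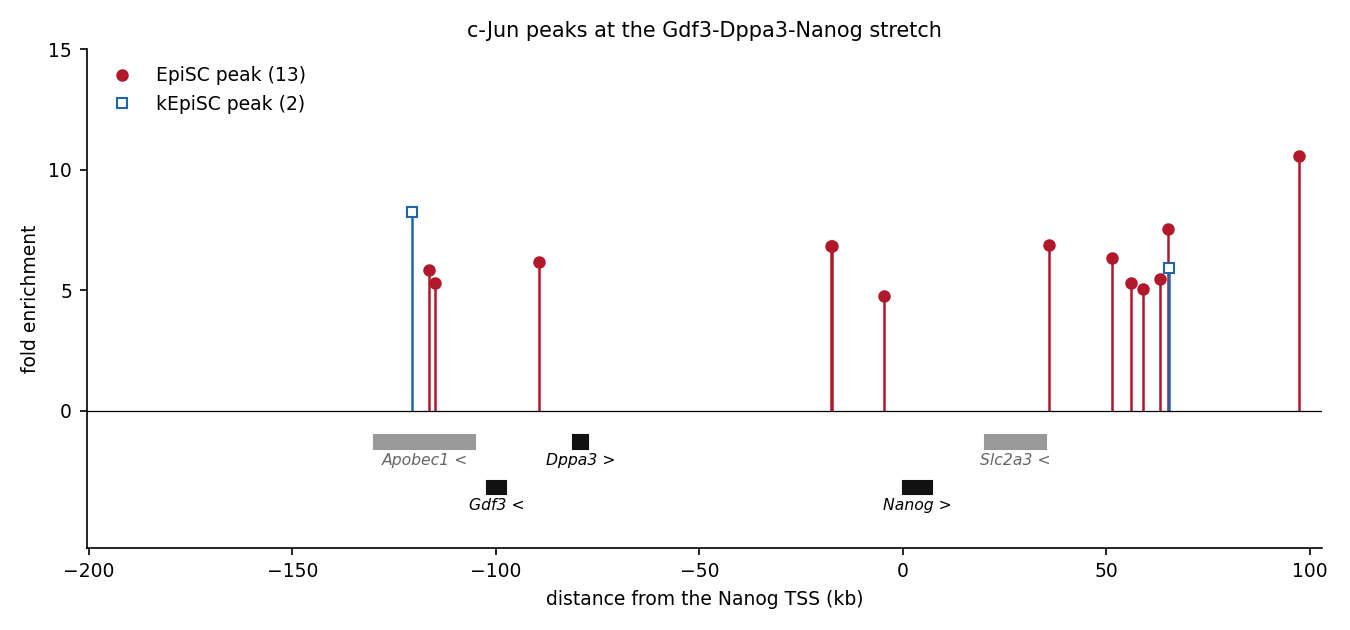
Each stem is a c-Jun peak, placed by the distance of its centre from the Nanog TSS in kb, and its height is the fold enrichment over local background in the list of its line. Boxes below, with an arrowhead for the direction, are Gdf3, Dppa3 and Nanog in black and in grey the neighbours whose TSS is the nearest to a peak; the 13 EpiSC peaks lie on both sides of Nanog, the kEpiSC list has 2 peaks, and the stems of the 2 peaks upstream of Nanog at a fold of 6.84 overlie each other.

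Between Dppa3 and Nanog the EpiSC list had 3 peaks, all upstream of Nanog. The nearest, 4540 bp away, had a fold of 4.76, which rested on 8 ChIP reads at the summit (95% exact Poisson interval 3.45 to 15.8). Ranked by the authors' −log10 q-value, this was a low peak, since 79.2% of the EpiSC list ranked higher. The ranks of peaks given below are by the same value and not by fold. The other two lay 17247 and 17625 bp upstream, 235 bp apart, each with a fold of 6.84 and 9 reads (4.12 to 17.1), and 40.8% of the list was higher. The farther one held both exact AP-1 sites of this group, printed above, and the nearer one held none within 1 mismatch. No kEpiSC peak lay closer than 69.96 kb to any of these 3 peaks, and the nearest kEpiSC peak to the Nanog TSS was 65343 bp away, on the other side of the gene.

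Downstream of Nanog the EpiSC list had 7 peaks, and the nearest gene to 6 of them was Slc2a3, which encodes the glucose transporter GLUT3. The first lay at the promoter of Slc2a3, 705 bp upstream of its TSS and 35885 bp from that of Nanog, with a fold of 6.88 and 12 reads (6.20 to 20.96). The next 5 lay 51370, 56075, 59031, 63294 and 65220 bp from the Nanog TSS with folds of 6.35, 5.29, 5.04, 5.47 and 7.53. Exact AP-1 sites lay in the first and the fourth of these 5, and the background at the third was 2.81 times the median background of the list. The last of the 5 was the region found in both lists. The seventh lay 97222 bp downstream, nearest to Foxj2, a forkhead transcription factor gene, with a fold of 10.6 and 15 reads (8.40 to 24.7). For this peak 11.3% of the list ranked higher by q-value. It held an exact site 35 bp from the summit. It is the outermost peak inside the 100 kb limit, and the next EpiSC peak on that side lay 148.6 kb from Nanog with a fold of 5.82, at C3ar1.

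Around Gdf3 and Dppa3 the EpiSC list had 3 peaks. One lay between both genes, 8098 bp upstream of the Gdf3 TSS and 8239 bp upstream of that of Dppa3, with a fold of 6.16 and 8 reads (3.45 to 15.8). Since these genes point away from each other, this peak was the nearest to both. The other two lay within Apobec1, which encodes an RNA-editing cytidine deaminase, at 17499 and 18854 bp downstream of the Gdf3 TSS. Their folds were 5.29 and 5.82 with 9 and 10 reads, 1 in intron 3 of 7 and 1 in an exon of the untranslated region. All 3 held an exact TGACTCA within 26 bp of the summit, at 26, 8 and 3 bp. In kEpiSCs a single peak lay on this side, 23064 bp downstream of Gdf3 in intron 5 of 7 of Apobec1, with a fold of 8.25 and 20 reads (12.2 to 30.9). The nearest EpiSC peak was 4210 bp away from it, so the lines had different peaks within the same gene. The background at this kEpiSC peak was 2.10 times the median of its list.

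In the EpiSC list the highest peak of the 6 genes was at Dppa5a, while in the kEpiSC list the peak in Apobec1 near Gdf3, described above, was the highest. The EpiSC peak at Dppa5a lay 3265 bp upstream of the TSS with a fold of 13.0 and 18 reads (10.7 to 28.4), and 5.01% of the EpiSC list ranked higher by q-value. The kEpiSC list had a peak at the same place, 3446 bp upstream with a fold of 6.15 and 10 reads (4.80 to 18.4), where 75.0% of its list ranked higher by q-value. The summits were 8 bp apart. The folds stand side by side and were not compared, because the lists differ in the scaling of the ChIP reads and library depth was not analysed. Neither peak held an exact AP-1 site over its whole width. A second EpiSC peak followed after a gap of 840 bp, 4475 bp upstream of the TSS, with a fold of 6.16 and 8 reads, and had no partner in kEpiSCs.

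Farther from Dppa5a each list had 1 peak of its own. The EpiSC peak lay 92857 bp upstream in intron 8 of 11 of Mto1, which encodes a mitochondrial tRNA modification enzyme, with a fold of 6.16 and 8 reads. The kEpiSC peak lay 75076 bp upstream and 38 bp from the TSS of Cgas, the cytosolic DNA sensor, with a fold of 7.69 and 13 reads (6.92 to 22.2). The lines did not share these, with 17.8 kb between them. Outside the limit the next EpiSC peak on that side lay 135.2 kb away with a fold of 4.05 and the next kEpiSC peak 152.4 kb away with a fold of 8.60. Ooep, an oocyte gene whose product belongs to the subcortical maternal complex, lies 10389 bp from Dppa5a, and both share these peaks, the nearest in EpiSCs being 5914 bp from the Ooep TSS. Of the peaks counted here, none in either list had Ooep, Gm10639, Omt2a, Omt2b, Gsta2 or Ddx43 as its nearest gene. The same was true of Mfap5 on chromosome 6.

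Dppa4 and Dppa2 had no c-Jun peak in either list within 100 kb. The nearest EpiSC peak lay 178.1 kb beyond Dppa2 and 204.6 kb from Dppa4, with a fold of 4.34 and 6 reads, and was nearest to Morc1. In kEpiSCs the nearest lay 1487 kb from Dppa2 and 1514 kb from Dppa4. Both genes thus lay in long peak-free gaps, of 2.53 Mb in EpiSCs with 7 protein-coding genes and of 4.67 Mb in kEpiSCs with 27. Such gaps are long but not rare, since 144 of 16145 EpiSC gaps were at least as long and held 10.7% of protein-coding genes, and 73 of 6012 kEpiSC gaps held 11.4%. The median gap was 32.9 kb in EpiSCs and 96.4 kb in kEpiSCs. Absence is to be read against the weakest peaks called over the genome-wide background. These had 5 reads and a fold of 4.10 in EpiSCs, and 7 reads and a fold of 4.51 in kEpiSCs. Multi-mapping reads were dropped by the authors, and how much of these gaps could be mapped was not examined.

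**Figure D2:**
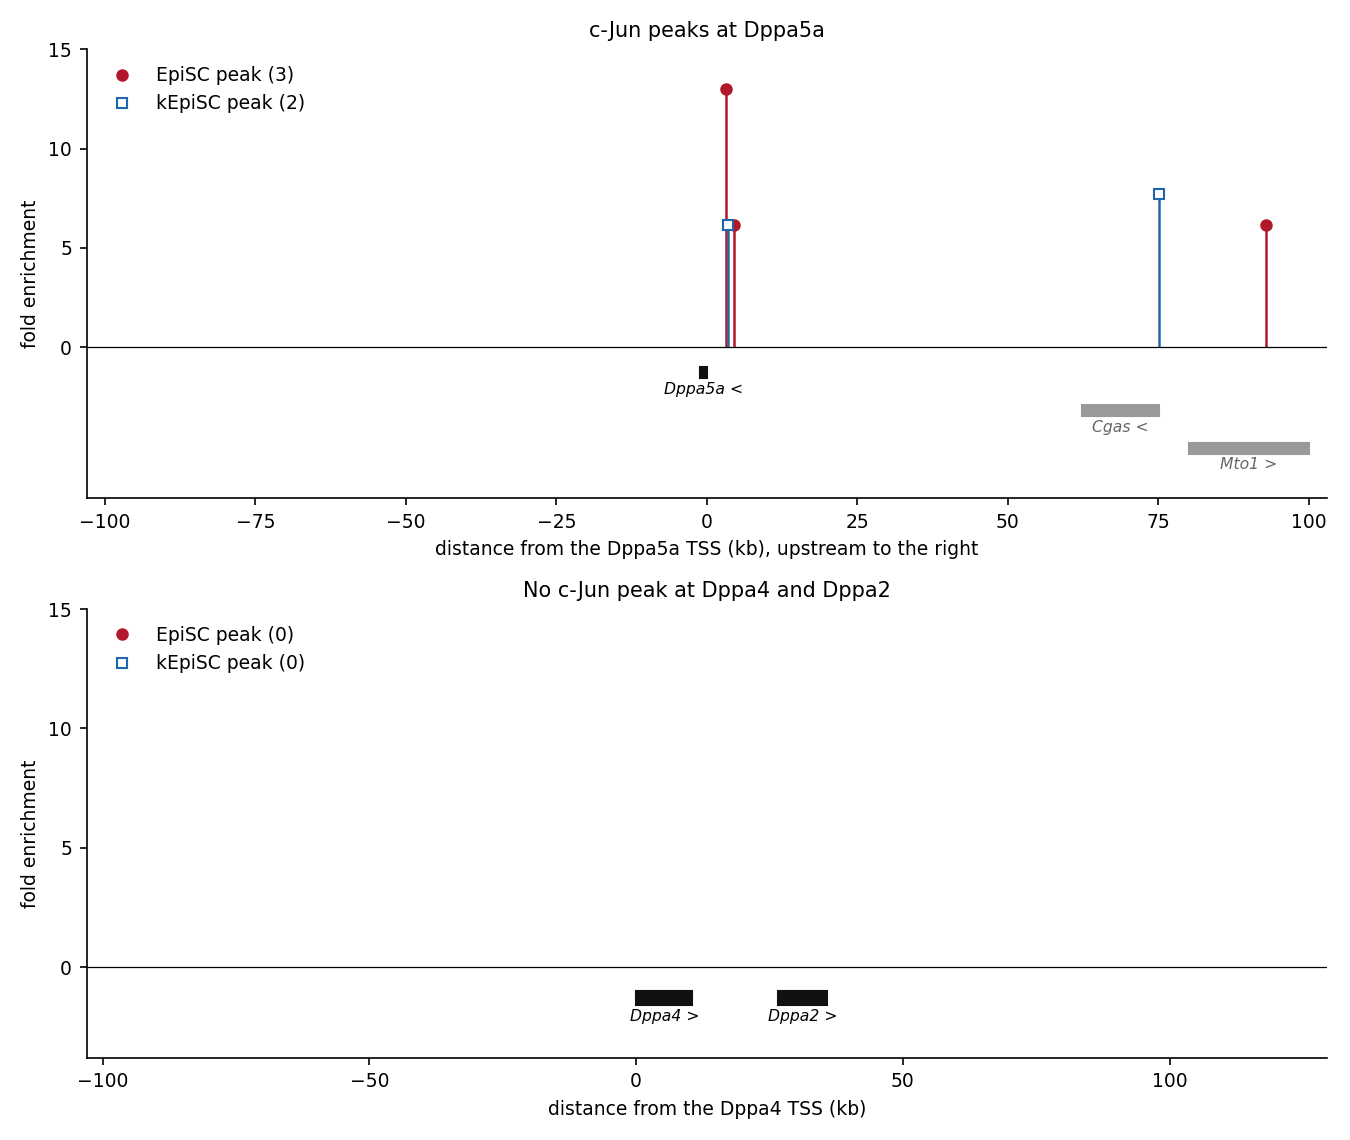
Stems are c-Jun peaks at Dppa5a (upper panel) and at Dppa4 and Dppa2 (lower panel), placed by distance from the TSS in kb, with the fold enrichment over local background as height. At Dppa5a an EpiSC and a kEpiSC peak stand together near the gene with folds of 13.0 and 6.15, and the lower panel holds 0 peaks of either list; black boxes are Dppa5a, Dppa4 and Dppa2, and grey boxes the neighbours whose TSS is the nearest to a peak.

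Among all protein-coding genes, Nanog lay in the upper tail by the number of EpiSC peaks around it. Counting each gene alone, 11 EpiSC peaks lay within 100 kb of Nanog, and 1.91% of genes had as many, where the median gene had 1. These are the 3 between Dppa3 and Nanog, the 7 downstream and the 1 between Gdf3 and Dppa3. The high count was not particular to Nanog, since Slc2a3, with its TSS 35.18 kb away, had 10 EpiSC peaks within 100 kb. Gdf3 and Dppa3 each had 6, which 12.1% of genes reached, and Dppa5a had 3, which 35.1% reached. These counts share peaks, since the 3 genes of chromosome 6 are neighbours. Of the 6 genes, 4 had an EpiSC peak within 100 kb, beside 65.9% of all protein-coding genes, and the same 4 had a kEpiSC peak, beside 42.2%. Within 10 kb the EpiSC list again had a peak at these 4 genes, beside 21.8% of all genes, and the kEpiSC list at Dppa5a alone, beside 8.27%. For Gdf3 and Dppa3 this EpiSC peak was the same peak, between both genes, so the 4 genes are not separate hits. In kEpiSCs Nanog, Gdf3 and Dppa3 had 1 peak each within 100 kb and Dppa5a had 2, and 20.4% of genes had 2 or more. The nearest kEpiSC peak to Dppa5a was closer than for most genes, with 4.13% of genes having a nearer one.

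**Figure D3:**
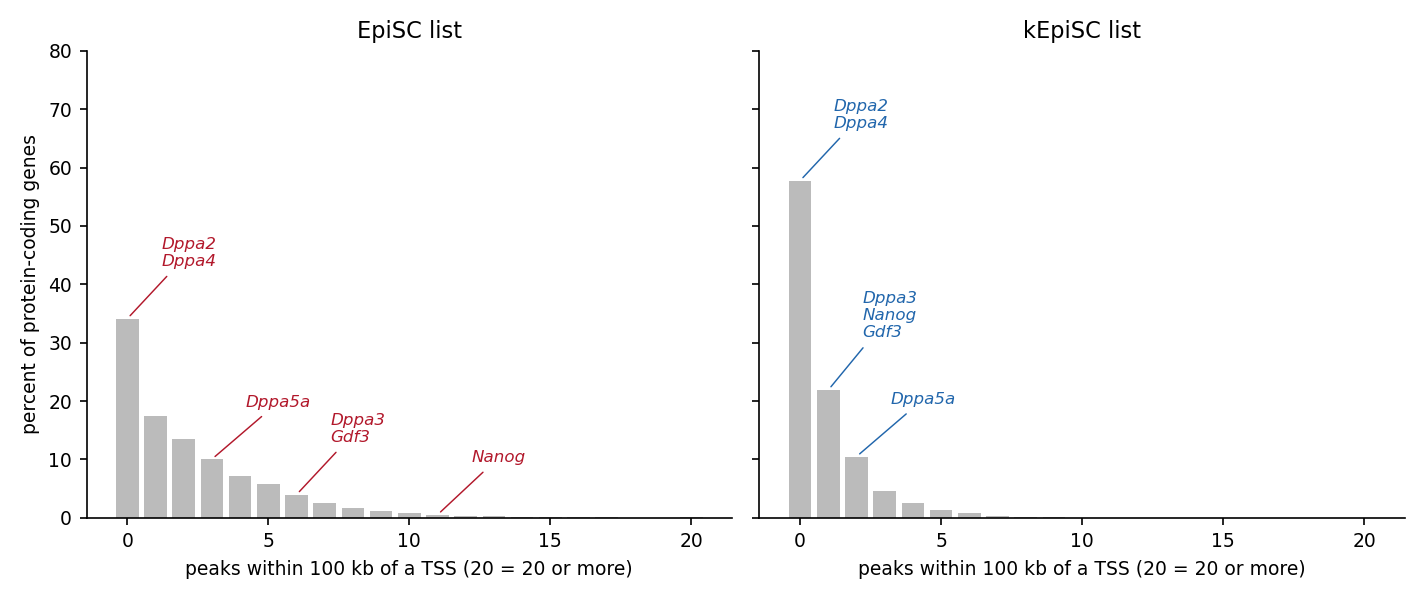
Bars give the percent of 21000 protein-coding genes with each number of c-Jun peaks within 100 kb of a TSS, for the EpiSC list (left) and the kEpiSC list (right), and names mark the 6 genes. In the EpiSC list Nanog stands in the far tail with 11 peaks, Gdf3 and Dppa3 at 6 and Dppa5a at 3, while Dppa2 and Dppa4 stand at 0 in both lists.

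In height the EpiSC peaks at these loci were like the rest of their list at the median. The median fold of the 16 EpiSC peaks was 6.16 (4.76 to 13.0), as in the whole EpiSC list (6.16), and their median number of reads was 9 (7 to 18) beside 10. The 4 kEpiSC peaks had a median fold of 6.92 (5.93 to 8.25) beside 7.24, and 11.5 reads (10 to 20) beside 14. Of the 16 EpiSC peaks, 5 had the narrowest width called, 115 bp, beside 12.6% of the list. By position 12 of the 16 lay between genes (beside 41.4% of the list), 2 in introns (44.0%), 1 at a promoter (9.84%) and 1 in an untranslated exon (1.97%). A gene of the 6 had the nearest TSS for 6 of the 16 EpiSC peaks and for 1 of the 4 kEpiSC peaks. For the others it was Slc2a3, Apobec1, Foxj2, Mto1 or Cgas, so most peaks within 100 kb of the 6 genes had the TSS of another gene closer.

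**Figure D4:**
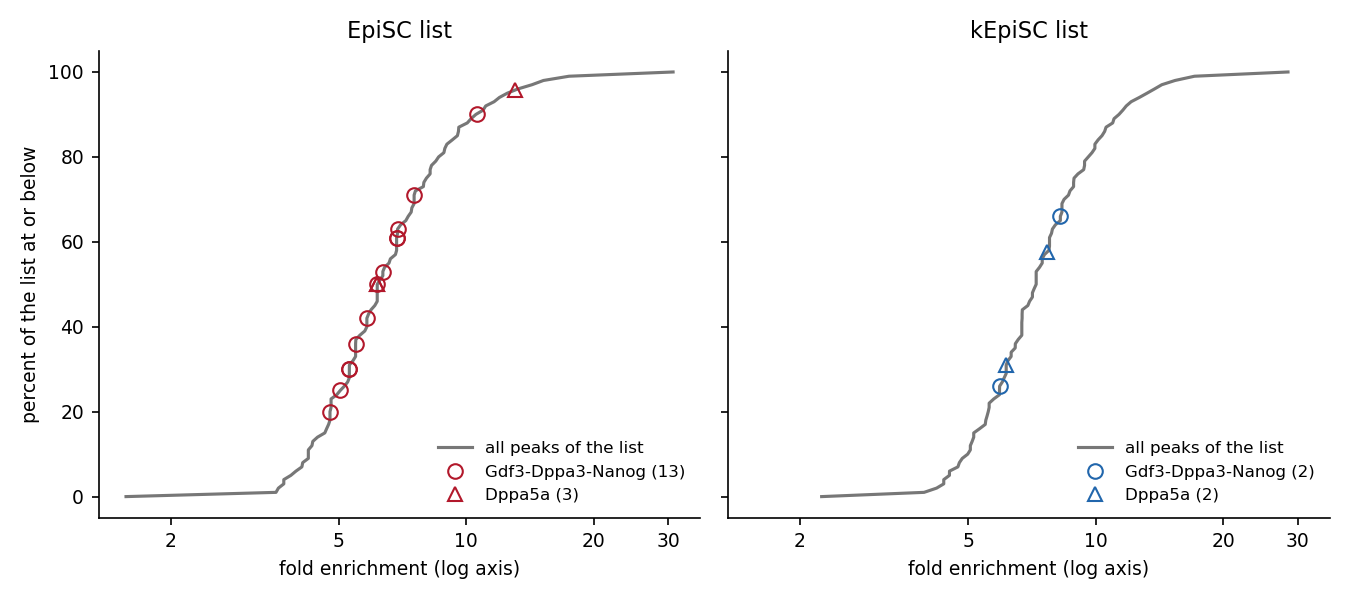
Grey lines give the percent of all peaks of a list at or below each fold enrichment over local background (log axis), for EpiSCs on the left and kEpiSCs on the right. Circles are peaks at Gdf3, Dppa3 and Nanog, triangles peaks at Dppa5a, placed on the line; they span much of the range below a fold of 13.0 in EpiSCs and lie from 5.93 to 8.25 in kEpiSCs.

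Most EpiSC peaks had no kEpiSC partner, both at these genes and in the list as a whole. An overlap of at least 1 bp with a kEpiSC peak was found for 2 of 16, beside 28.3% of all EpiSC peaks, and they are the peaks 65220 bp downstream of Nanog and 3265 bp upstream of Dppa5a. Seen from the other side, 2 of the 4 kEpiSC peaks overlapped an EpiSC peak, beside 75.8% of the whole kEpiSC list. The overlap depends on fold, since 12.8% of the lowest of 10 fold groups of the EpiSC list and 78.2% of the highest overlapped. Among EpiSC peaks of similar fold to each of the 16 (within 10%), the share that overlapped ran from 12.7% at the peak 59031 bp downstream of Nanog to 81.0% at Dppa5a, and the shares add up to 4.04 peaks beside the 2 found. The peak 97222 bp downstream of Nanog had no kEpiSC partner, where 56.8% of EpiSC peaks of similar fold had one. At the shared region downstream of Nanog the summits were 41 bp apart, with a fold of 7.53 and 10 reads in EpiSCs and of 5.93 and 10 reads in kEpiSCs. In bulk chromatin a site bound in fewer cells and a site bound less in each cell cannot be told apart.

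**Figure D5:**
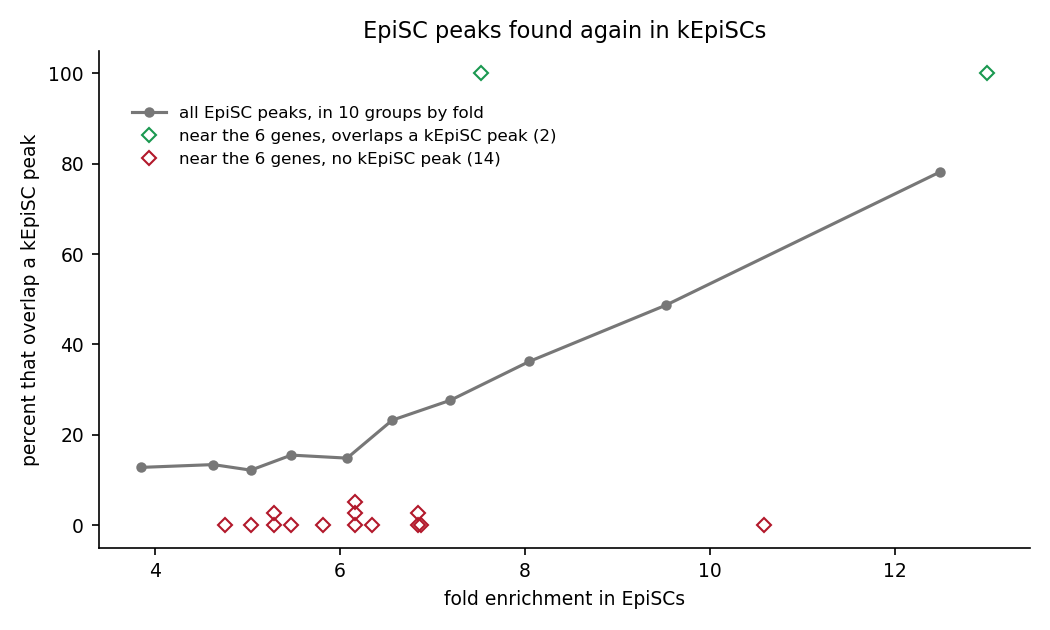
The grey line gives the percent of EpiSC c-Jun peaks that overlap a kEpiSC peak in 10 equal groups by fold enrichment in EpiSCs, each at its median fold. Diamonds are the 16 EpiSC peaks at the 6 genes, at 100 where they overlap a kEpiSC peak (2 peaks) and at 0 where they do not (14 peaks, with those of equal fold stacked upwards).

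AP-1 sites were about as frequent at these genes as elsewhere in EpiSCs. An exact TGAGTCA or TGACTCA lay in the central 200 bp of 7 of the 16 EpiSC peaks, beside 45.9% of the list, and all 7 were on chromosome 6. Allowing 1 mismatch, 13 of 16 peaks held one, beside 78.3% of the list. None of the 3 Dppa5a peaks had an exact site, nor did the peak nearest to Nanog, where the closest match lay 75 bp from the summit. In kEpiSCs 0 of 4 peaks had an exact site, beside 58.5% of the list, and each had a match with 1 mismatch in the window, which for the peak near Dppa5a lay outside the called peak. That the letters are missing from a window says nothing of c-Jun binding there.

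Other motifs were searched on both strands in the same window of the EpiSC peaks. GGGNGTGG, the core of the Klf4 motif, lay in 2 of 16 peaks, beside 9.2% of the list, and these are the neighbouring peaks 17247 and 17625 bp upstream of Nanog. TCAAGGTCA, the motif of Esrrb, lay in 1 peak, 59031 bp downstream of Nanog, beside 1.31%. The cAMP response element TGACGTCA lay in 0 of 16, beside 2.13%, the octamer ATGCAAAT of Oct4 in 0, beside 1.34%, and the Sox motif CATTGTT in 0, beside 3.58%. Of the 6 genes, the RefSeq promoter table used here held Nanog, and its promoter windows had no exact AP-1 site, as found in 5.20% of 32851 promoters, but had GGGNGTGG, as found in 17.6%. No c-Jun peak lay in that promoter.

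Genes that act with the 6 genes were looked up in both lists, beside the share of all genes. Of 16 partners of Nanog in the pluripotency network, 12 had an EpiSC peak within 100 kb (75.0%, beside 65.9% of all genes). A kEpiSC peak lay there for 11 (68.75%, beside 42.2%). The highest in EpiSCs were near the transcription factor genes Sox2 (fold 19.2, 85.2 kb from its TSS), Zfp281 (17.8), Klf4 (11.9) and Sall4 (11.1). All 4 of these peaks, picked for their high fold, were above the highest peak at the chromosome 6 stretch (10.6). The Dppa5a peak, at 13.0, was above those near Klf4 and Sall4. Each of the 4 had an exact AP-1 site. Such sites were more frequent at high fold, in 26.5% of the lowest and 65.4% of the highest of 10 fold groups of the EpiSC list. In kEpiSCs the highest were near Zfp281 (17.5), Sox2 (13.8), Klf4 (8.87) and Pou5f1 (8.32, 83.2 kb from a TSS), which encodes Oct4. Here and for the gene lists below, near means within 100 kb of a TSS. Whether the TSS of another gene lay closer to these peaks was not examined.

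Of 14 genes of Nodal and Gdf3 signalling, 11 had an EpiSC peak within 100 kb (78.6%, beside 65.9% of all genes) and 7 a kEpiSC peak (50.0%, beside 42.2%). In EpiSCs the highest were near the signal transducer gene Smad3 (fold 18.5), the co-receptor gene Tdgf1 (13.8), the ligand gene Gdf1 (9.52) and the receptor gene Acvr1b (8.25). In kEpiSCs they were near Gdf1 (12.1), Smad4 (8.40), Smad3 (8.34) and Tdgf1 (7.16). At Smad3 the highest peak of each list was a different one, 81.5 kb from a TSS in EpiSCs and 35.9 kb in kEpiSCs.

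The DNA methylation machinery, next to which Dppa3 acts, had peaks within 100 kb at 8 of 10 genes in each list (beside 65.9% of all genes in EpiSCs and 42.2% in kEpiSCs). The highest in EpiSCs were near Uhrf1 (fold 14.3, 66.35 kb from a TSS), which brings the maintenance methyltransferase to replicated DNA, the oxidase gene Tet3 (12.6), and the methyltransferase genes Dnmt3b (11.6) and Dnmt3a (9.29). In kEpiSCs Dnmt3a and Tet3 (10.8 each), Dnmt3b (10.1) and Dnmt1 (9.18) had the highest. The 8 genes of the complexes at bivalent promoters, where Dppa2 and Dppa4 sit, had peaks within 100 kb at 7 genes in EpiSCs (87.5%, beside 65.9%) and at 6 in kEpiSCs (75.0%, beside 42.2%). The highest EpiSC peaks were near the Polycomb genes Jarid2 (15.0) and Suz12 (12.2) and the genes Kmt2a (7.40) and Wdr5 (7.28) of H3K4 methyltransferase complexes, and the highest kEpiSC peaks near Kmt2a (11.3), Jarid2 (10.5), Ash2l (8.64) and Eed (8.24).

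Of 8 KH-domain and maternal complex genes related to Dppa5a, 4 had a peak within 100 kb in each list, Ooep, Tle6, Padi6 and Khdc3 (50.0%, beside 65.9% of all genes in EpiSCs and 42.2% in kEpiSCs). Ooep had the Dppa5a peaks. Tle6 had a fold of 11.1 in EpiSCs and 12.1 in kEpiSCs, Padi6 of 7.53 and 5.97, and Khdc3 of 6.35 and 5.06.

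Among the 54 listed genes, likeness was measured as the sum of the absolute differences in the number of peaks within 100 kb and in the highest fold in both lists, on a log2 scale. The genes most like Nanog were Sall4, with 7 EpiSC peaks and 1 kEpiSC peak (distance 0.832), and Tbx3, with 10 and 3 (distance 1.44). For Dppa5a they were Ooep at 0, because of the shared peaks, and Smad4 at 0.965. For Dppa4, 11 listed genes were tied at 0 because they too had no peak within 100 kb in either list, among them the receptor genes Acvr1c and Acvr2a.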

How the data were processed

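c-Jun ChIP-seq of EpiSCs and kEpiSCs was analysed, with 2 ChIP and 2 input libraries per line. The deposited peaks are the output of MACS, run by the authors without changed settings on Bowtie2 alignments to mm10 from which multi-mapping reads had been dropped. Per the submitters' processing notes bcl2fastq, SAMtools and bedtools were used too. Tool versions were not given in the sources used here. The deposited list of each line gives for every peak a score made from the q-value, the fold enrichment at the summit (a ratio of ChIP to local background, with 1 added to both), the −log10 p-value, the −log10 q-value and the summit offset. Each list is named at the first ChIP replicate and may rest on that library alone. Library totals were not analysed here.

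Fold and −log10 p were solved together for the reads at the summit within 0.01, which succeeded for 100% of EpiSC and 99.6% of kEpiSC peaks. In kEpiSCs 1 read counted as 0.775 in the pileup. Intervals cover counting error only. Curated RefSeq transcripts on GRCm38.p6 gave the TSSs, a promoter ran from 1000 bp upstream to 100 bp downstream of a TSS, and motifs were searched on both strands. With 1 list per line no test was run, and counts and medians are set beside those of the whole list. The text names the 6 genes and their peaks, the protein-coding neighbours within 100 kb (1 of them is not reported here), up to 4 genes per pathway list, by highest fold, and the 2 listed genes most like Nanog, Dppa4 and Dppa5a. The genes and lists were chosen with earlier results of these data known. The alternatives covered the distance, the summit, the higher-scoring peaks, the annotation, the overlap and the motif window. The calculations were tested on simulated data. Software was matplotlib 3.10.9, pysam 0.24.0, pandas 2.3.3, scipy 1.17.1, numpy 2.4.6 and Python 3.11.15.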

Additional observations from a re-analysis of the deposited data

How the results depend on the processing

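Of 34 alternatives over 10 results, 21 left a count within 1.5 times of that reported, or the median fold at the value printed. Counting peaks within 50 kb of a TSS left 9 EpiSC peaks and 2 kEpiSC peaks. With the higher-scoring peaks alone, each list split at its median q-value, 7 EpiSC and 2 kEpiSC peaks were left, 0 EpiSC peaks overlapped a kEpiSC peak and 0 the reverse, 3 EpiSC peaks had an exact AP-1 site, 1 of the 6 genes had an EpiSC peak within 10 kb and 0 a kEpiSC peak, a gene of the 6 was the nearest for 3 EpiSC peaks, and the median EpiSC fold was 6.88. Both shared regions were lost there because their kEpiSC peaks are among the lower-scoring. Within 5 kb of a TSS 2 of the 6 genes had an EpiSC peak, and within 50 kb 3 had a kEpiSC peak. The summit in place of the centre, predicted transcripts, both stricter overlaps, both other motif windows and genes of any kind changed no count. No paired analysis was possible because the lists give no values by replicate, so leaving out a replicate could not be tried either. Depth limits what the lists can show, since most peaks at these genes rest on 7 to 13 reads.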

Other observations

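The peak between Gdf3 and Dppa3 and the peak 17625 bp upstream of Nanog share a stretch of 20 bases around their AP-1 site, chosen after their sequences were seen.
Shared stretch: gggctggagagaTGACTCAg
It resembles the start of B2, a family of short interspersed repeats of the mouse genome. GRCm38.p6 held 1363 copies of these 20 bases on either strand, 100% of them in repeat-masked sequence, and 21 copies (1.54%) lay in an EpiSC peak, including those at both genes, and 4 (0.294%) in a kEpiSC peak. The form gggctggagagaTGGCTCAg, which lacks the AP-1 site, had 25146 copies, of which 28 (0.111%) lay in an EpiSC peak and 8 (0.0318%) in a kEpiSC peak. Reads that map to more than 1 place were not kept by the authors, so copies that are alike over a read have no value, and how this differs between the forms was not tested. Repeat-masked bases filled most of the central window of 3 of the 16 EpiSC peaks at the 6 genes (54.5% at Gdf3, 58.0% and 51.0% at the peaks 17625 bp upstream and 59031 bp downstream of Nanog), beside 4.97% of peaks in the whole list.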
